A study of Mus musculus with 2 samples.

Results

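Mature migratory dendritic cells were selected from 2 single-cell libraries of immune cells of mouse brain tumours by raw counts of unique molecular identifiers (UMIs, 1 per captured transcript molecule). A cell needed at least 2 Fscn1, 1 Ccr7 and 2 H2-Aa UMIs. It could hold at most 3 UMIs of the complement genes C1qa, C1qb and C1qc together, 1 of the T cell genes Cd3d, Cd3e and Cd3g together and 1 of the B cell gene Cd79a. Of 10041 cells kept, 61 met these conditions, 40 in the metformin library and 21 in the control library. The cells came from C57BL/6 mice that carried GL261 cells, a mouse glioma line, injected into the brain. The metformin group had metformin in its drinking water and the control group had DW control water. Both groups carried the tumour, and on day 20 after injection cells with a high level of CD45, the common surface protein of leukocytes, were sorted from the dissected tumour region. Each group is 1 library, so no difference between the groups has a replicate check and no test was run. The number of mice behind a library, their sex, the dose and the sort gates are not given in the sources used here.

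Conventional dendritic cells take up antigen in tissues and exist as a Batf3-dependent type 1 (cDC1), marked by Xcr1 and Clec9a, and a type 2 (cDC2), here marked by Cd209a. When either type matures, it turns up the chemokine receptor CCR7, which guides it along CCL19 and CCL21 to lymph nodes, and fascin, the actin-bundling protein encoded by Fscn1. Mature cells are also known to shut down new synthesis of MHC class II, to keep peptide-loaded class II at the surface, and to carry ligands that stimulate T cells together with ligands that restrain them, such as PD-L1, encoded by Cd274.

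The metformin library held 5473 barcodes with 47142356 UMIs and the control library 6174 barcodes with 49651404 UMIs. After leaving out barcodes with fewer than 300 genes or more than 10% mitochondrial UMIs, 4606 metformin and 5435 control cells were kept. The libraries shared 9 barcode sequences, and none of these marked a mature dendritic cell. The libraries differed in transcripts that most immune cells do not make, of which 2 are named here because of their values. Gh, the pituitary growth hormone gene, had a UMI in 0.738% of metformin cells and in 24.9% of control cells. Igkc, an immunoglobulin light chain gene, had one in 14.0% of metformin and 61.3% of control cells. Among the mature dendritic cells, Gh had 0 UMIs in the 40 metformin cells and 33 UMIs, in 8 of 21 cells, in control. Igkc had 4 UMIs in 4 metformin and 23 UMIs in 10 control mature cells. Their part in the results was not tested.

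The values that chose the cells are given as a description. Fscn1 had a median of 19 UMIs per cell (2 to 76) in metformin and 23 (2 to 66) in control. Ccr7 had a median of 35.5 UMIs (2 to 110) in metformin and 25 (2 to 87) in control. H2-Aa, an MHC class II alpha chain gene, had a median of 14 UMIs (2 to 102) in metformin and 15 (2 to 177) in control. Few cells sat at a limit: 1 metformin and 2 control cells had exactly 2 Fscn1 UMIs, and 1 cell of each library had exactly 2 H2-Aa UMIs. The class II condition decided the most cells that otherwise looked alike. It alone kept out 19 metformin and 11 control cells, which had 0 or 1 H2-Aa UMIs and medians of 15 and 18 Fscn1 UMIs. The Fscn1 condition alone kept out 36 metformin cells, all with 0 Fscn1 UMIs, and 26 control cells with 0 or 1. The Ccr7 condition alone kept out 1 metformin and 0 control cells. None of the 867 metformin and 739 control barcodes that failed the cell filters met the gene conditions.

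The label was checked on 3 markers that the selection did not use. Ccl22, a chemokine that attracts T cells bearing CCR4, had a UMI in 30 of 40 metformin and 14 of 21 control cells, against 1.34% and 1.03% of the other metformin and control cells. Il4i1, an amino acid oxidase that breaks down phenylalanine and tryptophan, had a UMI in 37 of 40 metformin and 18 of 21 control cells, against 4.34% and 6.30% of the others. Socs2, an inhibitor of cytokine receptor signalling, had a UMI in 37 of 40 metformin and 20 of 21 control cells, against 13.4% and 12.5% of the others. All 3 markers were thus present in most selected cells, and the label holds on them. In T cells, which should lack it, Ccl22 had a UMI in 0.353% of metformin and 0.121% of control cells, with median depths of 8442 and 7694 UMIs. The selected cells had similar depths, with medians of 8834 UMIs in metformin and 9207 in control. With each cell thinned to 4508 UMIs, 36 metformin and 19 control cells were deep enough, and Ccl22 was still seen in 22 and 11 of them.

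Markers of other cell types were few. Neutrophil genes had 0 UMIs over 6 genes in metformin and 1 UMI in control, and the Langerhans cell genes Cd207 and Cdh1 had 0 UMIs in both libraries. B cell genes summed to 3 UMIs in metformin and 2 in control, and T cell genes to 37 and 15 UMIs, with at most 5 and 4 in a cell. The selection capped Cd79a on the B cell list and the Cd3 genes on the T cell list, so these low sums are fixed in part by it. Microglia genes summed to 33 UMIs in metformin and 38 in control, and 1 control cell alone held 23 of these, of which 22 were Cx3cr1. Monocyte genes summed to 78 UMIs in metformin, of which 1 cell held 29, and to 20 in control. Most monocyte UMIs were Plac8, with 71 in metformin and 18 in control, and Vcan was at 0. Macrophage genes, of which the selection capped the C1q ones, summed to 76 UMIs in metformin and 29 in control. NK cell genes summed to 15 UMIs in metformin and 4 in control. Plasmacytoid dendritic cell genes summed to 206 UMIs in metformin and 85 in control, of which 174 and 66 were Bst2, and the defining gene Siglech had 1 and 0. Neural genes summed to 53 UMIs in metformin and 30 in control, nearly all Mbp, with Gfap at 0. Their part in the results was not tested.

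The conventional dendritic cells used for comparison were cut from the same libraries by Xcr1 and Clec9a for cDC1 and by Cd209a for cDC2, with at most 1 Fscn1 UMI. There were 53 metformin and 22 control cDC1, and 24 metformin and 20 control cDC2. Scrublet, which looks for barcodes that hold 2 cells, marked 37 metformin and 62 control cells, of which 0 were mature dendritic cells, cDC1 or cDC2. Cells that met every condition but one for another cell type were also few: 3 metformin cells and 1 control cell failed by Cd3 UMIs alone, 0 and 7 by Cd79a alone, and 5 and 2 by C1q UMIs alone.

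Mature dendritic cells made up 0.868% of the metformin cells (interval 0.621% to 1.18%) and 0.386% of the control cells (interval 0.239% to 0.590%), a ratio of 2.25 (interval 1.29 to 4.01). All intervals given here are exact 95% intervals that take in counting error alone, so they say nothing of the spread between mice or sorts. The cDC1 share was 1.15% in metformin and 0.405% in control (ratio 2.84, interval 1.70 to 4.91). The cDC2 share was 0.521% in metformin and 0.368% in control, with a ratio of 1.42 whose interval, 0.750 to 2.70, held 1. Among the 3 dendritic classes together the mature cells held the same part of both libraries, 34.2% in metformin and 33.3% in control (ratio 1.03, interval 0.591 to 1.83). So the mature cells were more frequent in the metformin library when counted among all cells, and not detectably so when counted among dendritic cells.

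**Figure D1:**
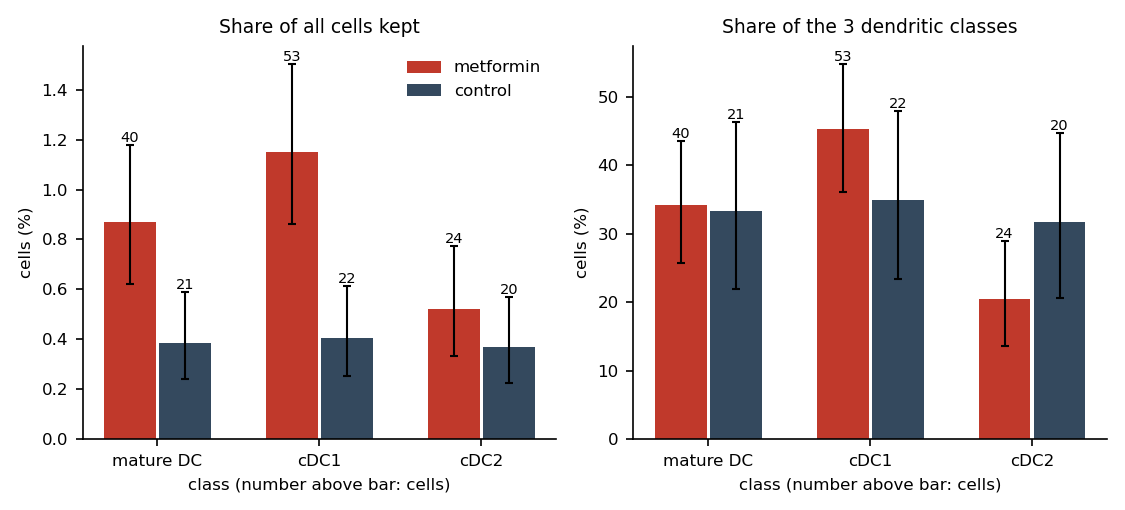
Share of mature dendritic cells, cDC1 and cDC2 in the metformin and the control library, as a percentage of all cells kept (left) and of the 3 dendritic classes together (right). Bars give 1 library each, error bars the exact 95% counting interval and numbers the cells: the 40 metformin and 21 control mature cells were 0.868% and 0.386% of all cells, but 34.2% and 33.3% of the dendritic cells.

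Within each library the UMIs of a class were summed and expressed as CPM, the part of that sum held by a gene on the usual scale. A gene was counted as higher or lower in mature cells where 1 of the classes compared had at least 50 CPM and 20 UMIs, the ratio was at least 2 either way with an interval that left out 1, and both libraries gave the same direction. Over cDC1, 13.6% of 2574 genes were higher and 19.2% lower. Over cDC2, 18.1% of 1811 genes were higher and 21.2% lower. Against both classes, 273 of 1720 genes were higher (15.9%) and 245 lower (14.2%). List counts against both classes are to be set beside these 2 shares. Conventional cells held more RNA, with median depths of 17519 UMIs in metformin and 18105.5 in control cDC1 and 14019 and 11429.5 in cDC2, and more mitochondrial RNA, with medians of 2.79% and 2.29% in cDC1 and 2.72% and 2.98% in cDC2 against 1.38% and 1.84% in mature cells. The conventional cells also held more of some other markers. Monocyte genes summed to 2870 CPM in metformin and 2629 CPM in control cDC1, and to 4618 and 2788 CPM in cDC2. In mature cells they summed to 209 and 105 CPM. Macrophage genes summed to 1074 and 655 CPM in cDC2 and 165 and 115 CPM in cDC1, against 204 and 152 CPM in mature cells. Plasmacytoid genes summed to 1450 and 1101 CPM in cDC1, against 553 and 446 CPM in mature cells. The part of depth and of these transcripts in the ratios was not tested. The classes were cut by transcripts of these same cells, so these ratios describe the cells and test nothing.

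The genes farthest above both other classes began with Cd63, Cacnb3 and Igfbp4. Cd63, a tetraspanin of late endosomes and exosomes, had 1607 CPM in metformin and 1727 CPM in control mature cells, 2.98 and 27.4 CPM in cDC1, and 3.11 and 0 CPM in cDC2. In mature cells it had a UMI in 38 of 40 metformin and 20 of 21 control cells. Cacnb3, a beta subunit of voltage-gated calcium channels, had 998 CPM in metformin and 882 CPM in control mature cells, against 7.96 and 12.5 CPM in cDC1. Both genes were thus near absent from the conventional cells and present in almost every mature cell of both libraries. Ramp3, which partners the receptors of adrenomedullin and related peptides, had 1339 CPM in metformin and 998 CPM in control mature cells, against 33.8 and 17.4 CPM in cDC1. Anxa3, an annexin, had 515 CPM in metformin and 562 CPM in control mature cells, against 1.99 and 9.97 CPM in cDC1. Tmem123, a membrane glycoprotein gene, had a UMI in 40 of 40 metformin and 20 of 21 control mature cells, with 2082 and 2063 CPM. Serpinb6b, a serine protease inhibitor gene, had 1752 CPM in metformin and 1785 CPM in control mature cells, against 45.8 and 145 CPM in cDC1 and 6.22 and 0 CPM in cDC2. The other genes that the naming rule gave were Pdlim4, Nudt17, Adcy6, Tmcc3 and Lactb, whose ratios over the 2 classes ran from 12.6 for Lactb over control cDC1 upwards.

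Igfbp4, a binding protein of insulin-like growth factors, differed from these in how it was spread. It had 146 UMIs in metformin and 96 UMIs in control mature cells, 0 and 1 UMI in cDC1, and 0 UMIs in cDC2 of both libraries. Only 9 of 40 metformin and 6 of 21 control cells carried a UMI of it, and the richest cell held 47.3% of its UMIs in metformin and 51.0% in control. T cells carried a UMI of it in 5.36% of metformin and 5.51% of control cells. Most Igfbp4 UMIs thus lay in a few mature cells of each library, and cells with 0 UMIs do not show its absence.

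**Figure D2:**
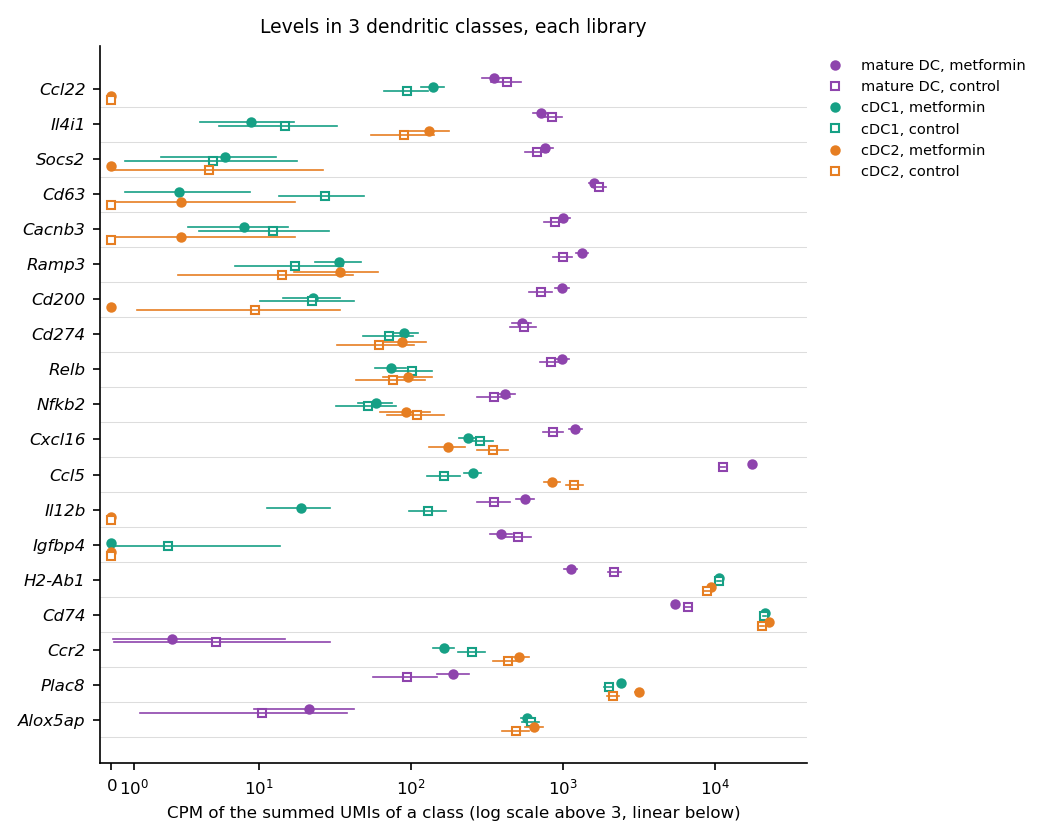
Levels of 19 genes in mature dendritic cells, cDC1 and cDC2 of each library, in CPM of the summed UMIs of the class on a scale that is logarithmic above 3. Filled circles are the metformin library, open squares the control library, and lines the exact 95% counting interval: the markers in the upper rows lie to the right in mature cells of both libraries, and H2-Ab1, Cd74, Ccr2, Plac8 and Alox5ap lie to the left.

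The genes of the migration list moved one way. Of its 14 members, 2 were used by the selection, 10 of the rest could be judged against both classes, and 9 were higher in mature cells and 0 lower, against a background of 15.9% and 14.2%. The median log2 ratio of the list over cDC1 was 2.23 in metformin and 2.27 in control, where all genes had -0.15 and -0.11. Over cDC2 it was 2.21 in metformin and 1.80 in control, where all genes had 0.02 and 0.01. Tbc1d4, a Rab GTPase-activating protein, had 1188 CPM in metformin and 746 CPM in control mature cells, against 45.8 and 102 CPM in cDC1. Myo1g, an unconventional myosin of leukocytes, had 877 CPM in metformin and 882 CPM in control mature cells, against 78.6 and 130 CPM in cDC1. Marcks, which links signalling to the actin cortex, had 1840 CPM in metformin and 1895 CPM in control mature cells, against 297 and 391 CPM in cDC1.

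Of 19 genes on the list of regulatory molecules, 7 could be judged against both classes. Of these, 6 were higher in mature cells and 0 lower, beside 15.9% and 14.2% of all genes. The 6 include Socs2 and Il4i1, the markers on which the label was checked above, so the count restates them in part. Cd274, which encodes the PD-1 ligand PD-L1, had 534 CPM in metformin and 551 CPM in control mature cells, against 90.5 and 72.3 CPM in cDC1 and 87.1 and 61.7 CPM in cDC2. It had a UMI in 38 of 40 metformin and 20 of 21 control mature cells. Cd200, the ligand of an inhibitory receptor of myeloid cells, had 985 CPM in metformin and 714 CPM in control mature cells, against 22.9 and 22.4 CPM in cDC1. Pdcd1lg2, the second PD-1 ligand gene, was 3.21-fold higher than in cDC1 in metformin and 9.69-fold in control. Fas, a death receptor gene, had 145 CPM in metformin and 121 CPM in control mature cells, against 11.9 and 0 CPM in cDC1. Of 2 further genes that are often tied to tolerance, Ido1, which degrades tryptophan, and Itgb8, which activates TGF-beta, had 0 UMIs in all 61 mature cells. A count of 0 was taken to allow up to 3 UMIs over the summed cells of a library, a fixed floor and not the end of an exact interval. Aldh1a2, which makes retinoic acid, had 3 UMIs in metformin and 2 in control, too few to compare.

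Of 6 judged costimulation genes, Cd80 was higher and Cd48 lower, near the shares of all genes, 15.9% and 14.2%. Cd80, a ligand of CD28 and CTLA-4, had 153 CPM in metformin and 152 CPM in control mature cells, against 28.9 and 32.4 CPM in cDC1. Cd86, the other such ligand, had 193 CPM in metformin and 263 CPM in control mature cells, close to the 228 and 274 CPM in cDC1. Cd40, the receptor of CD40L on T cells, was 3.93-fold higher than in cDC1 in metformin and 3.54-fold in control, but had 231 and 221 CPM against 152 and 280 CPM in cDC2. Cd83, a surface marker of matured dendritic cells, was 2.17-fold higher than in cDC1 in metformin and 1.64-fold in control.

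The NF-kappaB list had 15 judged genes of 19, and 6 were higher and 0 lower, beside 15.9% and 14.2% of all genes. Relb, the subunit of the alternative NF-kappaB pathway, had 989.9 CPM in metformin and 835 CPM in control mature cells, against 73.6 and 102 CPM in cDC1 and 96.5 and 76.0 CPM in cDC2. It had a UMI in 40 of 40 metformin and 20 of 21 control mature cells. Nfkb2, its partner, had 416 CPM in metformin and 352 CPM in control mature cells, against 58.7 and 52.3 CPM in cDC1. Birc2, a ubiquitin ligase of the pathway, had 692 CPM in metformin and 751 CPM in control mature cells, against 43.8 and 34.9 CPM in cDC1. Traf1, an adaptor of TNF receptors, had 1534 CPM in metformin and 1601 CPM in control mature cells, against 243 and 316 CPM in cDC1. Birc3, a target of the pathway, was 1.17-fold over cDC2 in metformin, with an interval of 0.809 to 1.69, and did not pass.

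Since these NF-kappaB subunits bind DNA at kappaB sites, the promoters of marker genes and of the 3 leading genes were searched for the letters GGGNNNNNCC on both strands, from 250 bases before the start site to the start site. Sequences are from RefSeq, build GRCm38.p6. The window of Ccl22 is chr8:94745434-94745683 on the plus strand and held 2 matches, which begin 162 and 131 bases before the start. The window of Il4i1 is chr7:44836038-44836287 on the plus strand and held 3 matches that overlap, at 199 and 198 bases before the start. The window of Igfbp4 is chr11:99040994-99041243 on the plus strand and held 1 match, 48 bases before the start. The start sites are those of the RefSeq promoters and can differ from the gene ends in the GENCODE annotation. There Il4i1 spans 44816387 to 44840809, so its window lies inside the gene. Ccl22 begins at 94745590 there, within its window. These 3 windows are shown with the matches in capitals. Ccl22 and Il4i1 are markers that the selection did not use, and Igfbp4 transcripts were near absent elsewhere among the dendritic cells. Both Ccl22 matches are on the minus strand, so the printed strand shows their reverse complement.
Ccl22: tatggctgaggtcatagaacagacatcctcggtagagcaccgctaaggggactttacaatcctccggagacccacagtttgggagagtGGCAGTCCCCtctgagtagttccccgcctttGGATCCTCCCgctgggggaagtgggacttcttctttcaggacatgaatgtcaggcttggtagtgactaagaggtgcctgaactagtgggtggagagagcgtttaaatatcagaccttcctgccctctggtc
Il4i1: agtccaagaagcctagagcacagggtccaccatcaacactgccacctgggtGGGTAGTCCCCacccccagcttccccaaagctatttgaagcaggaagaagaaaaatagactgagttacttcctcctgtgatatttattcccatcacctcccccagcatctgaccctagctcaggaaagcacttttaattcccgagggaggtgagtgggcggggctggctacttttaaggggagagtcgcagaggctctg
Igfbp4: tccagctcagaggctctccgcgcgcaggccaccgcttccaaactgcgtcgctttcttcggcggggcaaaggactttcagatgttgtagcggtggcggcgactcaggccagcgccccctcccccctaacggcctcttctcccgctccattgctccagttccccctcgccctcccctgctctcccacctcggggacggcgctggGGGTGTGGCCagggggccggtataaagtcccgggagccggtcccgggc
Of the others searched, Cacnb3 held 1 match and Cd63 held 0, and Socs2 is named only. Of all 32851 promoters in the table, 45.8% held at least 1 match in the same window, so a match by itself is common. It is a description of letters and not of binding.

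MHC class II genes showed the reverse pattern to migration. Of 12 members, H2-Aa was used by the selection, 10 of the rest were judged, and 0 were higher and 8 lower, against the background of 15.9% and 14.2%. The median log2 ratio of the list over cDC1 was -3.23 in metformin and -2.28 in control, and over cDC2 -3.05 and -2.02. H2-Ab1, the class II beta chain gene, had 1119 CPM in metformin and 2168 CPM in control mature cells, against 10492 and 10562 CPM in cDC1. Cd74, the invariant chain that guides class II through the cell, had 2013 UMIs in metformin and 1256 UMIs in control mature cells, levels that were 0.256 and 0.315 of those in cDC1. Ciita, the transcriptional activator of class II genes, had 6 UMIs in metformin and 3 in control mature cells, or 16.1 and 15.8 CPM, against 239 and 212 CPM in cDC1. H2-DMb1, which helps to load peptide onto class II, had 42.9 CPM in metformin and 10.5 CPM in control mature cells, against 871 and 865 CPM in cDC1. H2-DMa, its partner, had 64.4 CPM in metformin and 137 CPM in control, against 907 and 1027 CPM in cDC1.

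MHC class I genes differed from class II. Of 18 members, 15 were judged, and 4 were higher and 1 lower, beside 15.9% and 14.2% of all genes. H2-K1, a class I heavy chain gene, had 5306 CPM in metformin and 4867 CPM in control mature cells, against 1736 and 1737 CPM in cDC1. B2m, the light chain of class I, had a UMI in every mature cell, at 3.06-fold the cDC1 level in metformin and 2.84-fold in control. Psme2, an activator of the proteasome, was 3.63-fold higher than in cDC1 in metformin and 3.94-fold in control. Calr, an endoplasmic reticulum chaperone, was the 1 lower gene, with 185 CPM in metformin and 131 CPM in control mature cells against 638 and 583 CPM in cDC1. Of the 20 lysosome genes, 15 were judged, and 2 were higher and 6 lower, beside 15.9% and 14.2% of all genes. Lamp1, a membrane protein of lysosomes, had 1049 CPM in metformin and 856 CPM in control mature cells, against 133 and 125 CPM in cDC1. Psap, the precursor of sphingolipid activators, had 418 CPM in metformin and 347 CPM in control, against 2812 and 3087 CPM in cDC1.

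**Figure D3:**
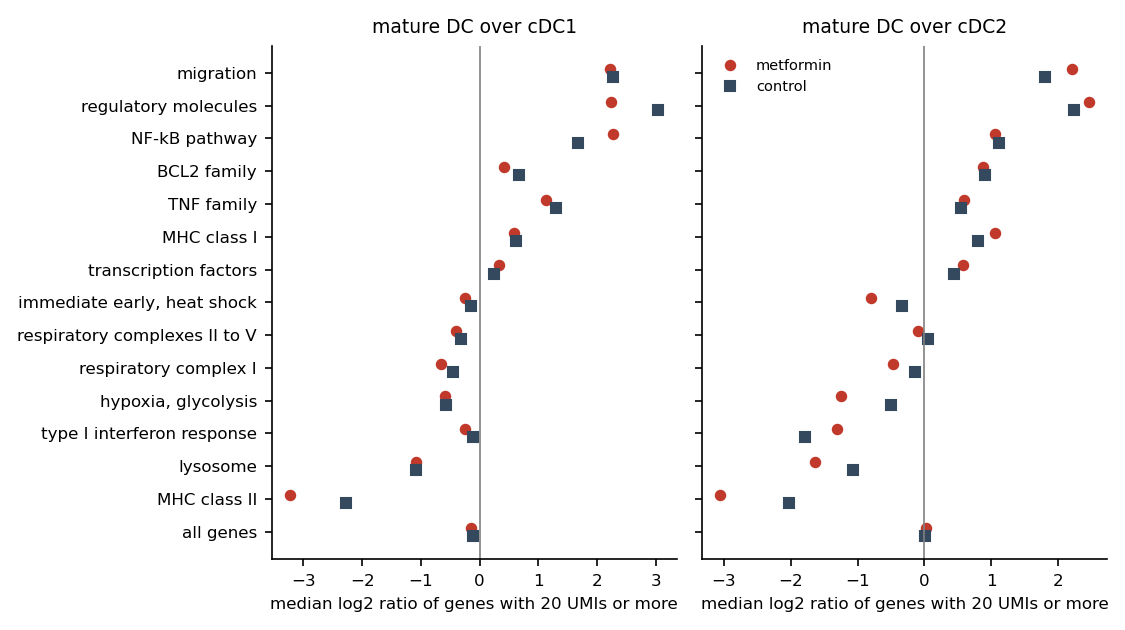
Median log2 ratio of mature dendritic cells over cDC1 (left) and over cDC2 (right) for 14 gene lists and for all genes, over the genes with at least 20 UMIs in the 2 classes together. Red circles are the metformin library and dark squares the control library: migration, regulatory and NF-kB genes lie to the right of 0 and MHC class II and lysosome genes to the left in both libraries, while all genes lie near 0.

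Among 6 judged chemokine genes, 3 were higher and 2 lower, beside 15.9% and 14.2% of all genes. Ccl5, a chemokine that attracts T cells, had 17407 CPM in metformin and 11146 CPM in control mature cells, against 255 and 164 CPM in cDC1 and 850 and 1187 CPM in cDC2. It had a UMI in 40 of 40 metformin and 20 of 21 control mature cells, with medians of 119 and 77 UMIs per cell. T cells carried Ccl5 too, with a UMI in 77.3% of metformin and 65.4% of control T cells. Cxcl16, the ligand of CXCR6, had a UMI in every mature cell, with 1204 CPM in metformin and 861 CPM in control against 237 and 287 CPM in cDC1. Ccl22 was higher than in cDC1 by 2.52-fold in metformin and 4.49-fold in control, and had 0 UMIs in cDC2 of both libraries. The cDC1 value came from 3 cells in each library, and 1 cDC1 held 72 of the 140 UMIs in metformin and 1 held 35 of the 38 in control. Ccl4, a chemokine of the same CC family, was lower, with 21.5 CPM in metformin and 15.8 CPM in control mature cells against 253 and 259 CPM in cDC1. Ccr2, the receptor of CCL2 on monocytes, was lower too and had 1 UMI in the mature cells of each library, against 164 and 252 CPM in cDC1.

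Of 6 judged cytokine genes, Il15ra, Il1rn and Il12b were higher and Tgfb1 was lower, beside 15.9% and 14.2% of all genes. Il15ra, which presents IL-15 to T and NK cells, had 333 CPM in metformin and 278 CPM in control mature cells, against 5.97 and 2.49 CPM in cDC1. Il15 itself had 131 CPM in metformin and 99.8 CPM in control mature cells, against 8.95 and 9.97 CPM in cDC1. Il12b, the shared subunit of IL-12 and IL-23, had 566 CPM in metformin and 352 CPM in control mature cells, 18.9 and 130 CPM in cDC1 and 0 UMIs in cDC2. Ebi3, a subunit of IL-27 and IL-35, had 16 UMIs in metformin and 5 in control and did not pass. Bcl2l14, a BCL2 family gene, had 545 CPM in metformin and 614 CPM in control mature cells, against 59.7 and 47.3 CPM in cDC1. Of the TNF family, 6 genes were judged, and 3 were higher and 0 lower, beside the same shares of all genes. Among the 3 was Tnfrsf18, which encodes GITR. It had 359 CPM in metformin and 215 CPM in control mature cells, against 28.9 and 24.9 CPM in cDC1.

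The transcription factors that mark the 2 conventional lineages were not spread like the lineage surface markers. Xcr1 and Cd209a had 0 UMIs in all 61 mature cells. Over 8 cDC1 markers without Irf8 and Batf3, the mature cells held 4 UMIs in metformin and 6 in control, or 10.7 and 31.5 CPM, against 2564 and 2399 CPM in cDC1. Over 8 cDC2 markers without Irf4 and Tnip3 they held 11 UMIs in metformin and 6 in control, or 29.5 and 31.5 CPM, against 2169 and 1947 CPM in cDC2. The sets include Xcr1, Clec9a and Cd209a, by which cDC1 and cDC2 were cut. The levels in those classes, and the contrast with them, are therefore fixed in part by the selection. Neither set had a UMI in 32 of 40 metformin and 12 of 21 control mature cells. T cells held 59.1 CPM of the cDC1 set in metformin and 61.4 CPM in control, and 28.5 and 32.2 CPM of the cDC2 set. The mature cells were thus near or under the level of T cells, and their lineage could not be read from these genes. Tnip3, the other gene left out of the cDC2 set, had 93 UMIs in 22 of 40 metformin and 35 UMIs in 7 of 21 control mature cells, or 249 and 184 CPM. That was 1.46-fold the cDC2 level in metformin and 1.93-fold in control, and 6.97-fold and 2.73-fold the cDC1 level. Irf8, a transcription factor needed for cDC1, had 1805 CPM in metformin and 1612 CPM in control mature cells, 1434 and 1734 CPM in cDC1 and 137 and 161 CPM in cDC2. Batf3, its partner in cDC1, had 298 CPM in metformin and 326 CPM in control mature cells, 211 and 187 CPM in cDC1 and 65.4 and 90.2 CPM in cDC2. Irf4, a factor of cDC2, had 7 UMIs in metformin and 2 in control. Irf8 was thus near the cDC1 level, at 1.26-fold in metformin and 0.929-fold in control, and both genes were above the cDC2 level in both libraries. Of the 16 judged genes on the transcription factor list, 3 were higher and 1 lower, beside 15.9% and 14.2% of all genes. Among the 3 was Stat4, which transmits IL-12 signals and had 523 CPM in metformin and 483 CPM in control mature cells against 17.9 and 17.4 CPM in cDC1.

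The 10 genes farthest below both other classes began with Alox5ap. Alox5ap, needed for leukotriene synthesis, had 21.5 CPM in metformin and 10.5 CPM in control mature cells, against 578 and 613 CPM in cDC1 and 644 and 489 CPM in cDC2. Plac8, an interferon-inducible gene also on the monocyte list, had 190.5 CPM in metformin and 94.5 CPM in control mature cells, against 2385 and 1993 CPM in cDC1. Ckb, a creatine kinase, had 13.4 CPM in metformin and 5.25 CPM in control mature cells, against 577 and 705 CPM in cDC1. Tm6sf1 had 0 UMIs in all 61 mature cells, against 115 UMIs in metformin and 62 in control cDC1. The remaining genes on this side were Ifitm6, H2-DMb1, Ly6c2, Plbd1, Ccr2 and Ifitm1. Ly6c2 and Ccr2 are on the monocyte list too, whose sum was high in cDC1 and cDC2. The part of the make-up of those classes in these ratios was not tested. Itgax, which encodes CD11c, was also near 0 in mature cells, with 0 UMIs in metformin and 1 in control against 92.5 and 110 CPM in cDC1.

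Interferon and metabolic lists gave weaker or split values. Of 16 type I interferon genes judged against both classes, 0 were higher and 4 lower, beside 15.9% and 14.2% of all genes. Against cDC2 alone 15 of 24 were lower (background 21.2%). Irf7, a regulator of the interferon response, had 193 CPM in metformin and 142 CPM in control mature cells, against 962 and 1031 CPM in cDC2. Of 23 judged subunits of respiratory complex I, which metformin is known to inhibit, 0 were higher and 0 lower. The median log2 ratio of the list over cDC1 was -0.65 in metformin and -0.45 in control. For complexes II to V, 1 of 31 judged genes was lower, Cycs, which encodes cytochrome c. On the hypoxia and glycolysis list 3 genes were higher and 3 lower of 14 judged, beside the same 15.9% and 14.2% of all genes. Pfkfb3, which drives glycolysis through fructose 2,6-bisphosphate, had 311 CPM in metformin and 257 CPM in control mature cells, against 38.8 and 47.3 CPM in cDC1. Ldha, lactate dehydrogenase A, had 85.8 CPM in metformin and 110.3 CPM in control mature cells, against 625 and 496 CPM in cDC1. Pfkfb3 and Ldha thus went opposite ways, and the counts of the list were near the shares of all genes.

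The mature cells were not alike in class II. H2-Ab1 had 0 UMIs in 14 of 40 metformin and 8 of 21 control cells, with a median of 1 UMI in both libraries and maxima of 95 and 159. A limit of 20 H2-Ab1 UMIs, chosen after the values were seen, set apart 7 metformin and 5 control cells. These held 81.1% of the H2-Ab1 UMIs in metformin and 94.4% in control, with 18.5% and 24.5% of all UMIs. As the limit is set on H2-Ab1 itself, a high share of that gene follows in part from the choice. Of genes that the limit did not use, these cells held 58.4% and 69.3% of the H2-Eb1 UMIs. They held 51.3% and 63.5% of the H2-Aa UMIs and 50.2% and 70.1% of the Cd74 UMIs. S100a4, a calcium-binding protein gene, went with them: these cells held 93 of its 186 UMIs in metformin and 128 of 170 in control. Plac8 was also higher in these cells, with 319 CPM in metformin and 279 CPM in control against 161 and 34.8 CPM in the remaining cells, and so was Cd63, with 2057 and 2274 CPM against 1504 and 1550.2 CPM. Other genes went the other way. Il12b had 0 UMIs in these cells in either library, out of 211 UMIs in metformin and 67 in control. Igfbp4 had 1 UMI in them in each library, out of 146 in metformin and 96 in control. Ccl5 had 5767 CPM in these cells of metformin and 6608 CPM in those of control, against 20052 and 12617 CPM in the remaining cells. Fscn1 was close in both sets, with 2057 CPM in metformin and 2145 CPM in control, against 2545 and 2558 CPM in the remaining cells.

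**Figure D4:**
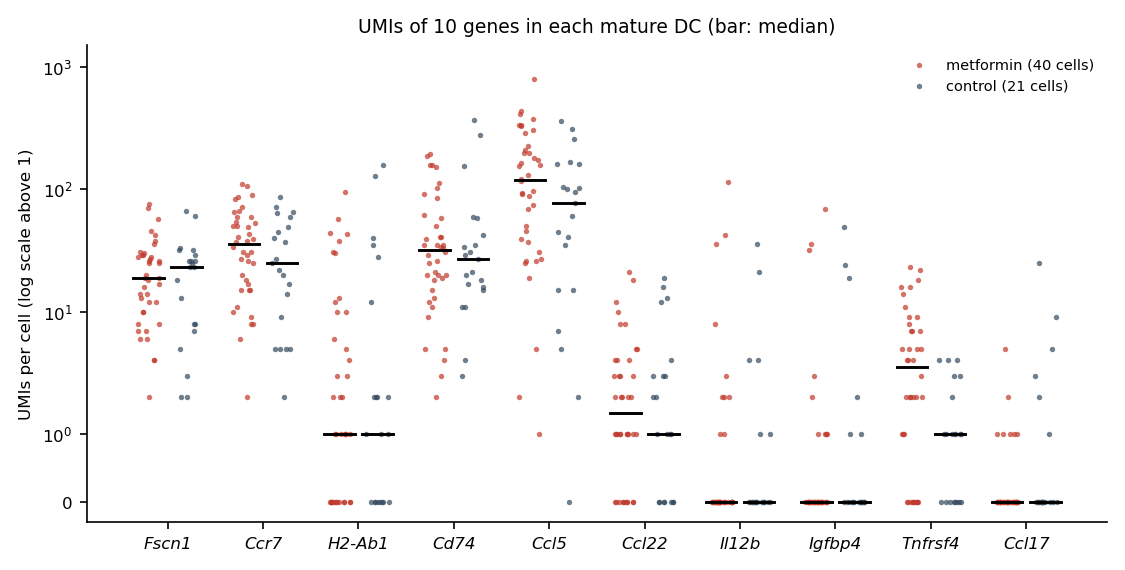
UMIs per cell of 10 genes in each of the 40 metformin and 21 control mature dendritic cells, on a scale that is logarithmic above 1, with the median as a bar. Fscn1 and Ccr7 were required by the selection, and Cd74 and Ccl5 were present in nearly all cells. H2-Ab1, Il12b, Igfbp4 and Ccl17 had medians of 0 or 1 with a few cells above, far above except for Ccl17 in metformin, where the highest cell had 5 UMIs.

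Il12b was as unevenly spread as Igfbp4. It had a UMI in 10 of 40 metformin and 6 of 21 control cells, with maxima of 114 and 36 UMIs, and the richest cell held 54.0% of its UMIs in metformin and 53.7% in control. T cells carried a UMI of it in 0.353% of metformin and 0.121% of control cells. With each cell thinned to 4508 UMIs it was seen in 7 of 36 metformin and 4 of 19 control cells. Il12b was found with Cd274 in 9 metformin and 5 control cells and with Ccl22 in 8 and 4. With Ccl17, another ligand of CCR4, it was found in 0 of 40 metformin and 2 of 21 control cells. Ccl17 itself had a UMI in 7 metformin and 6 control cells, and 6 and 5 of these also had Ccl22. The counts are small and no correlation was computed.

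Between the libraries, mature cells of metformin and control were compared by their summed UMIs, 372775 in metformin and 190464 in control. A gene was counted where 1 library had at least 50 CPM and 20 UMIs, the ratio of metformin over control was at least 1.5 either way and the interval left out 1. Of 2434 genes, 158 were higher in metformin (6.49%) and 91 lower (3.74%). With the larger metformin sum, the rule passes higher genes more easily than lower ones. On simulated counts it found 38 of 50 genes set 2-fold higher and 26 of 50 set 2-fold lower. With no minimum of CPM and UMIs, 204 genes were higher and 266 lower. The counts of higher and lower genes are therefore not to be weighed against each other. The intervals treat UMIs as independent and do not cover the spread between cells, so each gene was also recomputed without its richest cell in each library. Then 113 genes kept the higher call (4.64%) and 48 the lower (1.97%). This check is not even, since 1 cell is a larger part of the fewer control cells and its loss favours higher calls. Without the richest cells 160 genes in all were higher and 50 lower, where 158 and 91 were counted over all cells. For Clu, Car13 and Exosc2 all control UMIs lay in 1 cell. No control UMI was then left, so their kept calls do not show a spread over cells. Of the markers that the selection did not use, Ccl22 had a ratio of 0.826 (interval 0.622 to 1.10), Il4i1 of 0.851 (interval 0.697 to 1.04) and Socs2 of 1.14 (interval 0.920 to 1.41), and none was counted.

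Tnfrsf4, which encodes OX40, a costimulatory receptor, led the genes higher in metformin that were spread over many cells. It had 217 UMIs in metformin, in 30 of 40 cells with a median of 3.5, and 27 UMIs in control, in 13 of 21 cells with a median of 1. The levels of 582 CPM in metformin and 142 CPM in control gave a ratio of 4.11 (interval 2.75 to 6.37), and 4.15 without the richest cell of each library. With the H2-Aa condition dropped the ratio was 2.17. No control cell had more than 4 UMIs of it, and the highest metformin cell had 23. T cells had a UMI of Tnfrsf4 in 33.2% of metformin and 42.0% of control cells, the opposite order. Tnfrsf18, its neighbour in the TNF receptor family, had a ratio of 1.67 (interval 1.17 to 2.43). Of the 9 TNF family genes judged, these 2 were higher and 0 lower, beside 6.49% and 3.74% of all genes.

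Socs1, an inhibitor of JAK-STAT signalling, had 53 UMIs in metformin, in 22 of 40 cells, and 6 UMIs in control, in 5 of 21 cells (ratio 4.51, interval 1.94 to 12.8). With the H2-Aa condition dropped its ratio was 1.46 and it was no longer counted. Clu, which encodes clusterin, a secreted chaperone, had 33 UMIs in 7 metformin cells and 1 UMI in control, and 0 UMIs in cDC1 and cDC2 of both libraries. Lgals3, which encodes galectin-3, had 319 CPM in metformin and 121 CPM in control (ratio 2.64, interval 1.68 to 4.33). Without the cells of at least 20 H2-Ab1 UMIs its ratio was 1.30, and it was no longer counted. Creg1, a glycoprotein of lysosomes, had 49 UMIs in 20 metformin cells and 7 UMIs in 5 control cells (ratio 3.58, interval 1.61 to 9.36). Sox4, a transcription factor, had 59 UMIs in 10 metformin cells and 10 UMIs in 5 control cells (ratio 3.01, interval 1.53 to 6.61). Exosc2, of the RNA exosome, had its 14 control UMIs in 1 cell and 58.5% of its 82 metformin UMIs in 1 cell, and a ratio of 1.09 with the H2-Aa condition dropped. The remaining genes that the rule named were Asprv1, Car13 and Tmem55b, with 39, 22 and 24 UMIs in metformin and 3, 1 and 2 in control.

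Ccl17 led the lower genes. It had 12 UMIs in 7 of 40 metformin cells and 45 UMIs in 6 of 21 control cells, and 1 control cell held 25 of these. The levels of 32.2 CPM in metformin and 236 CPM in control gave a ratio of 0.136 (interval 0.0656 to 0.262), and 0.170 without the richest cells. Malt1, a protease of NF-kappaB signalling, had 60 UMIs in 23 metformin cells and 88 UMIs in 15 control cells (ratio 0.348, interval 0.247 to 0.489). Nr4a1, an immediate early nuclear receptor gene, had 45.6 CPM in metformin and 168 CPM in control (ratio 0.271, interval 0.141 to 0.504). Hspa1b, an HSP70 gene, had 368 CPM in metformin and 824 CPM in control (ratio 0.446, interval 0.352 to 0.564). Ranbp2, a nuclear pore gene, had a ratio of 0.364 (interval 0.245 to 0.537), which was 0.815 without the cells rich in H2-Ab1. Apol7c, an apolipoprotein L gene, had 23 UMIs in 7 metformin cells and 37 UMIs in 5 control cells, of which 1 held 16. S100a10 had a ratio of 0.301 (interval 0.190 to 0.471), and 1 control cell held 30 of its 56 control UMIs. Vim, which encodes the filament protein vimentin, had 475 CPM in metformin and 950.3 CPM in control (interval of the ratio 0.404 to 0.618).

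**Figure D5:**
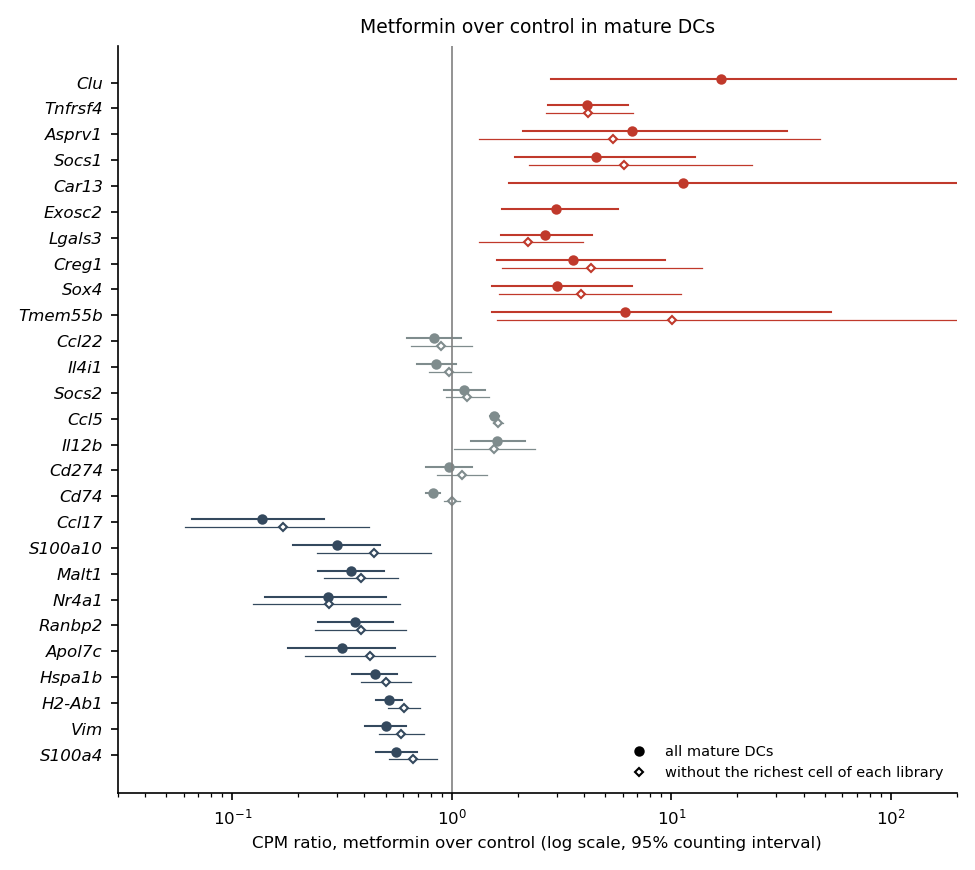
CPM ratio of metformin over control in mature dendritic cells, on a logarithmic axis, for the 10 highest genes (red), 7 further genes (grey) and the 10 lowest genes (dark) of the naming rule. Filled circles are all cells and open diamonds leave out the richest cell of each library, with 95% counting intervals that are drawn to the edge of the plot where they pass it; an open diamond is missing where control had 0 UMIs left. Tnfrsf4 lies at 4.11 and Ccl17 at 0.136, while Ccl22, Il4i1, Socs2 and Cd274 lie around 1.

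H2-Ab1 and S100a4 were lower in metformin over all cells, and this rested on few cells. H2-Ab1 had 417 UMIs in metformin and 413 in control, with a ratio of 0.516 (interval 0.449 to 0.593). Without the 7 metformin and 5 control cells of at least 20 H2-Ab1 UMIs the ratio turned round to 1.63, above the limit, with 260.1 CPM in metformin and 159.9 CPM in control. These cells were set apart by H2-Ab1 itself, so its ratio in the cells left is a description and no check. The ratio of S100a4 was 1.05 without these cells and 0.559 with them. The median cell had 1 H2-Ab1 UMI in both libraries. Of 7 judged class II genes, 0 were higher and 3 lower, beside 6.49% and 3.74% of all genes, and 1 of the 3 kept its call without the richest cells. Cd74 had a ratio of 0.819 (interval 0.763 to 0.879) over all cells and 1.26 without the cells rich in H2-Ab1. Of the other 2 lower genes, H2-Eb1 did not turn round: without those cells it had 1287 CPM in metformin and 1641 CPM in control. H2-DMa had 29.6 CPM in metformin and 41.7 CPM in control without them. Over all cells H2-DMa had 24 UMIs in metformin and 26 in control, of which the cells left out held 15 and 20. The UMIs that remained were too few to compare.

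Ccl5 was higher in metformin, with a ratio of 1.56 (interval 1.49 to 1.64) and medians of 119 UMIs per cell in metformin and 77 in control. The order was not particular to mature cells. Among all cells kept, 67.8% in metformin and 55.6% in control had a UMI of Ccl5, and the T cell shares given above had the same order. The ranges overlapped, from 1 to 791 UMIs in metformin and from 0 to 364 in control, and the mean over cells of each cell's CPM gave 1.48, under the limit of 1.5. With the H2-Aa condition dropped the ratio was 1.41. Il12b had a ratio of 1.61 (interval 1.22 to 2.15), but with at least 4 Fscn1 UMIs required per cell it was 0.703. That limit leaves out 1 metformin and 3 control cells, and the metformin one, with 2 Fscn1 UMIs, held 114 of the 211 Il12b UMIs. Cd274 had a ratio of 0.968 (interval 0.761 to 1.24), Cd83 of 1.12 (interval 0.947 to 1.33), Cd40 of 1.05 (interval 0.715 to 1.55) and Cd86 of 0.736 (interval 0.506 to 1.08), and none of these was counted. Cd200 had a ratio of 1.38 (interval 1.13 to 1.69) and Ramp3 of 1.34 (interval 1.13 to 1.59), both under the limit.

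By list, the median log2 ratio between the libraries was set beside that of all genes, -0.01, and counts beside 6.49% of all genes higher and 3.74% lower. The farthest medians were -0.69 for MHC class II, -0.57 for the AMPK list, of which 2 genes had 20 UMIs, 0.67 for the 1 such cell cycle gene, 0.56 for chemokines and 0.41 for chemokine receptors. Immediate early and heat shock genes had a median log2 ratio of -0.24, with 2 of 23 judged genes higher and 4 lower. Nr4a1, Hspa1b, Hspa1a and Klf6 were lower. Klf6, a transcription factor gene, had 1229 CPM in metformin and 1874 CPM in control (ratio 0.655, interval 0.570 to 0.755) and a UMI in every cell. Atf3, of the same list, was higher, with 60 UMIs in metformin and 15 in control (ratio 2.04, interval 1.15 to 3.88). Migration genes had a median of -0.01 with 2 of 13 higher, and NF-kappaB genes of 0.01 with 1 of 18 higher. Complex I subunits had a median of -0.03, with 2 of 26 judged genes higher and 0 lower. Complexes II to V had a median of 0.12, with 1 of 37 higher and 0 lower. Hypoxia and glycolysis genes had a median of 0.15, with 2 of 16 higher and 0 lower. Gapdh, a glycolytic enzyme, was 1 of these, with 1057 CPM in metformin and 677 CPM in control (ratio 1.56), and fell under the limit at 1.43 without the richest cells. Of 14 judged lysosome genes 4 were higher and 0 lower, where the list's median was 0.27, and Lyz2 among them had 67 of its 74 metformin UMIs in 1 cell.

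The library differences of mature cells were also looked up in the conventional cells. Of the 158 genes higher in metformin in mature cells, 13 were counted the same way and 9 the opposite way in cDC1, and 13 and 5 in cDC2. Over all genes, 129 of 2862 judged were higher in cDC1 and 171 of 2200 in cDC2. Of the 91 lower genes, 9 were counted the same way and 4 the opposite way in cDC1, and 8 and 9 in cDC2, where over all genes 193 were lower in cDC1 and 127 in cDC2. Many genes could not be counted in every class, and the difference between classes was not tested.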

How the data were processed

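The deposited files hold UMI counts per gene and barcode for 31053 genes, from libraries that, per the labels, were built with the 10x 3' v3 chemistry. The submitters' processing notes name Cell Ranger, Seurat and mm10, and the matrix software version is 3.0.0 per the file headers. Annotation and counting settings are not given in the sources used here. At the low end, a barcode had 500 UMIs. Counts were used as deposited by the authors.

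The members, gene lists and naming rule were chosen with earlier results of these data known. Named were the 15 highest and 10 lowest genes against both other classes, the 10 highest and 10 lowest between libraries that kept their call without the richest cell, a set of genes always given, and up to 4 genes of each list. Ranks followed the end of the interval closer to 1. Immunoglobulin and T cell receptor segments, mitochondrial, ribosomal, haemoglobin, sex-linked and predicted genes were left out of the ranking. Irf8, Batf3, Irf4 and Itgax are markers, and Gh and Igkc were named after their values were seen.

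No test was run, since each group has 1 library. CPM carry exact Poisson intervals, ratios exact conditional intervals and shares exact Clopper-Pearson intervals, at 95%, for counting error only. List medians use genes with at least 20 UMIs and 0.5 UMI added to each sum. Doublets were looked for with Scrublet in scanpy 1.11.5, with an expected rate of 5%. Other steps used scipy 1.17.1 and numpy 2.4.6. The ratio and call functions were checked on simulated data. Cell classes were rebuilt from counts and may differ from those of the study.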

Additional observations from a re-analysis of the deposited data

Results flagged for a closer look

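In 4 cases a named gene was counted in opposite directions between the libraries in mature cells and in another dendritic class. These differences were not tested. Socs1 had a log2 ratio of metformin over control of 2.07 in mature cells (53 UMIs in metformin, 6 in control) and -1.18 in cDC2 (16 in metformin, 24 in control). The cDC2 call was lost without the richest cell of each library. Ccl17 had a log2 ratio of -2.83 in mature cells (12 UMIs in metformin, 45 in control) and 3.36 in cDC2 (23 in metformin, 1 in control), and the cDC2 call was likewise lost. In cDC1 the Ccl17 ratio was 0.200, the direction of the mature cells. Nr4a1 had a log2 ratio of -1.86 in mature cells (17 UMIs in metformin, 32 in control) and 1.34 in cDC2 (67 in metformin, 17 in control), and both calls were kept without the richest cells. Il12b had a log2 ratio of 0.68 in mature cells (211 UMIs in metformin, 67 in control) and -2.75 in cDC1 (19 in metformin, 52 in control), where 2 cells of each library carried it and the call was lost without the richest.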

How the results depend on the processing

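No paired analysis was possible because each group is 1 library and the labels give no replicate numbers. The share ratio of mature cells kept its direction under the cell filters, Fscn1 limits, removal of the Ccr7 or H2-Aa condition, Scrublet calls and thinning to 4000 UMIs, from 1.94 to 2.56. With the 3 dendritic classes as denominator the ratios were 1.03 for mature cells, 1.30 for cDC1 and 0.646 for cDC2. Dropping the H2-Aa condition, chosen after seeing the data, gave 59 metformin and 32 control cells. The 158 genes higher in metformin numbered 79 with a minimum of 100 CPM and 50 UMIs, and 204 with none. Of the 158, 81 kept their call without the H2-Aa condition and 78 without the cells of at least 20 H2-Ab1 UMIs, and of the 91 lower genes 66 and 39. The 91 lower genes numbered 35 with that minimum, 266 with none, 50 without the richest cells, 141 without the H2-Aa condition and 58 without the cells of at least 20 H2-Ab1 UMIs, which was also chosen after seeing the data. The counts against cDC1 and cDC2 stayed within 1.5 times. Of 405 recomputed ratios of 45 genes between libraries, 383 stayed within the interval over all cells, 19 moved out of it and 3 turned round: H2-Ab1 to 0.68 and S100a4 to 0.059 on the log2 scale without those cells, and Il12b to -0.51 with at least 4 Fscn1 UMIs. For H2-Ab1 the cells were left out by UMIs of the gene itself. Of 200 recomputed class ratios of 25 genes, 1 lost its call. The cause was not tested. Some settings could not have changed these counts. Scrublet marked 0 cells of the 3 dendritic classes, and a ratio limit of 1.5 for the class ratios can only add calls. The 5% mitochondrial limit left out no mature cell, as the highest held 4.76% in metformin and 4.9985% in control. That limit and the Scrublet setting could thus only repeat the ratios between libraries. Precision is limited by the number of cells, 40 in metformin and 21 in control.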

Other observations

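Cd70, a TNF family ligand that stimulates T cells through CD27, was carried by few mature cells, 4 of 40 in metformin and 4 of 21 in control, with 12 and 9 UMIs, and by 1 UMI in all cDC1 and cDC2 together. Of the 4 metformin cells 2 also had Il12b, and in control all 4 did. Tnfrsf9, which encodes 4-1BB, had 39 UMIs in 14 metformin mature cells and 16 UMIs in 8 control ones, against 1 and 0 UMIs in cDC1 and 1 and 2 in cDC2.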
